A study of Mus musculus with 8 samples.

Results

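The mitochondrial ribosomal protein genes of the mouse were followed in 4 populations of CD4 T cells from the mesenteric lymph node. The genes were chosen by symbol: every gene whose name starts with Mrpl or Mrps followed by a digit and whose mean over the 8 libraries was at least 1 CPM, a gene's share of the counts in named genes scaled to a common total. That gave 77 of the 24108 named genes. One more symbol fitted the name, Mrpl53, which was listed at 0 in all 8 libraries, where 3 counts would be 0.0626 to 0.0788 CPM. The rule used the mean level and no difference between populations. The family itself was picked with earlier results of these data known. The rule's limit was far from the data: the lowest gene kept, Mrpl47, had a mean of 15.2 CPM.

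All mice carried the Foxp3 DTR-GFP and Foxp3 Thy1.1 alleles, 1 CD4CreER allele and 1 R26 lsl-tdTomato allele, were bred and weaned on AVNM with an amino acid-defined diet, and received tamoxifen together with diphtheria toxin (DT) over about 3 weeks. They were then moved to chow, given an SPF fecal microbiota, and analysed 12 days later, so the mice of every population share these treatments. Foxp3 is the transcription factor that defines regulatory T cells. The GFP allele also encodes the diphtheria toxin receptor (DTR), which the Thy1.1 label does not mention. A direct action of DT through this receptor therefore cannot be told apart from the reporter where GFP and Thy1.1 cells are compared. The tdTomato label marks CD4 T cells in which the CD4-driven Cre was active during tamoxifen. By the design text this timing labelled extrathymic cells that did not then express Foxp3. Whether this held for the Thy1.1 cells, whose label mentions no DTR, was not tested here. The populations were tdTomato-negative Thy1.1+, tdTomato-positive Thy1.1+, tdTomato-negative GFP+ and tdTomato-positive GFP+ cells, with 2 libraries each. The Thy1.1 libraries carry the numbers 1 and 2 and the GFP columns the numbers 3 and 4. The labels do not say whether the 2 libraries of a population came from different mice, so p-values measure the spread between libraries, which may be technical. Ages are not given.

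The mitochondrial ribosome translates the few messages that the mitochondrial genome encodes, all of them for subunits of the respiratory chain and ATP synthase. Its RNAs are made inside the organelle, while its proteins are encoded in the nucleus, made on cytosolic ribosomes and imported. The large subunit forms the peptide bond and holds the exit tunnel, and the small subunit reads the message. Many of these proteins descend from bacterial ribosomal proteins, and others have no bacterial counterpart. Activated T cells are known to expand mitochondrial mass and protein synthesis when they grow and divide. By position in the structure the 77 genes divide into 50 for the large subunit and 26 for the small subunit. These counts place Mrps30 and Mrps18a with the large subunit, where their proteins sit in spite of their names. The remaining gene, Mrps36, carries an Mrps name but encodes a component of the α-ketoglutarate dehydrogenase complex.

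Counts in named genes ran from 38077505 to 47896935 per library. Markers of the labelled cells were present in all 8 libraries: Cd3e was at 954 CPM or more and Foxp3 between 124 and 199 CPM. Their levels were not even across populations. In the first comparison described below, GFP against Thy1.1 among tdTomato-positive cells, 2 of 5 regulatory T cell markers were lower (Ikzf2, log2 -2.34, and Foxp3, -0.48) and Ctla4 was higher (1.39). In the second, tdTomato-positive against tdTomato-negative GFP cells, all 4 T cell markers had positive values (median 0.34) and Cd4 and Cd3g passed the test, Ikzf2 was lower and Ctla4 higher. The B cell marker Cd79b was at 3.60 to 14.2 CPM in the GFP libraries and 28.9 to 33.4 in the Thy1.1 libraries. That of 8 stromal and epithelial markers, most of it Pecam1, was 152 and 186 CPM in the tdTomato-positive GFP libraries and 230 to 313 in the others. Of 6 CD8 and NK cell markers the sum was 126.5 CPM in tdTomato-positive GFP library 3, most of it Nkg7, and 34.1 to 65.5 elsewhere. The list did not rise as a whole. Of the 5 that were tested, 0 were higher and 1 lower in the first comparison, and 0 higher and 2 lower in the second. Their median log2 values were -0.78 and -1.46, with 2 positive and 3 negative in each. The summed level of 10 myeloid and dendritic cell markers was 117 CPM in tdTomato-negative GFP library 3 and 31.6 in tdTomato-positive GFP library 3, against 4.31 to 6.87 in the other 6 libraries, with H2-Ab1 listed at 0 in all 8. The summed level of 4 erythroid markers was 46.7 CPM in tdTomato-positive GFP library 3, against 1.71 to 5.25 elsewhere. The part of these markers in the ribosomal protein results was not tested. Counts of genes past the threshold are given below with and without both of these libraries. The 2 libraries of a population were not copies of each other: a chi-square of their counts averaged 37.7 to 80.2 per degree of freedom over the tested genes.

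Promoter windows are shown for the genes whose transcripts passed the test in both comparisons of tdTomato-positive GFP cells described below. RefSeq windows on build GRCm38.p6, from 250 bases before to 50 after the annotated start, were matched by symbol for 68 of the 77 genes, with 74 windows in all. The unmatched genes were Mrps28, Mrpl13, Mrpl19, Mrps34, Mrps35, Mrpl54, Mrpl4, Mrpl15 and Mrpl38. Of the 7 genes that passed in both comparisons, 4 had a window, and the 250 bases before the start are printed 5′ to 3′ on the gene's strand. Capitals mark exact matches on either strand to CCGGAAG (the core of sites for ETS factors such as GABP), GCATGCGC (NRF1), AAGATGGC (YY1) and GGGCGG (Sp1).
Mrps6 (chr16:92058086-92058335, plus strand): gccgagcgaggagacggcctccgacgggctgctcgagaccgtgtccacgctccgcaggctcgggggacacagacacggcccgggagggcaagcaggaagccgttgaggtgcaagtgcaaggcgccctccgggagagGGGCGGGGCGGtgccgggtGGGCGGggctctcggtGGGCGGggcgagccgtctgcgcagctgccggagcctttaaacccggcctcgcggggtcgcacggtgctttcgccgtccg
Mrpl18 (chr17:12916092-12916341, minus strand): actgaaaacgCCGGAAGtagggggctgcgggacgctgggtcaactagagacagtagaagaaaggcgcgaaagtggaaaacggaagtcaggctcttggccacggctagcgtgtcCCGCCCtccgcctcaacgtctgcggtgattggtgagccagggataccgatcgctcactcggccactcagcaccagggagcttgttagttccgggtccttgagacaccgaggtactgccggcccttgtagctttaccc
Mrpl33 (chr5:31613701-31613950, plus strand): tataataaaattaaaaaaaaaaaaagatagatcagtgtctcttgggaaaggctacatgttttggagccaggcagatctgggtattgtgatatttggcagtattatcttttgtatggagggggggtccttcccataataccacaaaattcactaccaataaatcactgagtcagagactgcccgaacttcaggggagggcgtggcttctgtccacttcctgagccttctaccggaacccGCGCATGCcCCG
Mrpl12 (chr11:120484387-120484636, plus strand): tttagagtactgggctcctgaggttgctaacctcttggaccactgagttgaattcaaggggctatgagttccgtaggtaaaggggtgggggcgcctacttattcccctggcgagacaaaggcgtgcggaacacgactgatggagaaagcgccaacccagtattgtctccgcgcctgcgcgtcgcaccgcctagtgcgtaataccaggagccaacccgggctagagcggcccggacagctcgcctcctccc
The Mrps6 window was dense in GGGCGG, with a pair of overlapping matches and others downstream of it. The Mrpl18 window held a distal CCGGAAG and 1 Sp1 match on the opposite strand, Mrpl33 held GCATGCGC on the opposite strand just before the start, and Mrpl12 held none of the 4 motifs. The last letters of the Mrpl33 stretch are the first of a CCGGAAG that runs across the start.

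Over the whole family, CCGGAAG was found in 25 of 74 windows (33.8%), against 8.86% of all 32851 windows of the same length. AAGATGGC was found in 12 windows (16.2% against 2.75%), GCATGCGC in 8 (10.8% against 2.71%) and GGGCGG in 39 (52.7% against 35.7%). TATAAA, the TATA box, was found in 5 (6.76% against 13.6%) and CACGTG, the E-box that Myc and its relatives bind, in 7 (9.46% against 7.15%). Both strands were searched, and different motifs were counted separately where they overlapped. Cytosolic ribosomal protein genes held CCGGAAG in 36.8% and AAGATGGC in 11.8% of their 68 windows, so these 2 motifs were also frequent there. Of the 9 genes past the threshold that had a window, 4 held CCGGAAG, 1 GCATGCGC, 1 AAGATGGC and 5 GGGCGG. A match describes letters and is not evidence of binding.

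The family as a whole was highest in tdTomato-positive GFP cells. Summed over the 77 genes, the level was 3156 and 3034 CPM in the tdTomato-negative Thy1.1 libraries, 3384 and 3455 in the tdTomato-positive Thy1.1 libraries, 3556 and 3142 in the tdTomato-negative GFP libraries, and 4292 and 3893 in the tdTomato-positive GFP libraries. Both tdTomato-positive GFP libraries lay above the other 6, the tdTomato-negative GFP pair overlapped both Thy1.1 populations, and the 2 Thy1.1 populations did not overlap. As a mean over libraries this was 3095 ± 86.3, 3419 ± 50.7, 3349 ± 292 and 4093 ± 282 CPM (SD, n = 2 each), in the same order. The middle 2 populations did not differ beyond their spread. In all libraries these genes took between 0.303% and 0.429% of the counts. In sorted bulk cells, a change in the share of cells that express a gene and a change in RNA per cell cannot be told apart.

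**Figure D1:**
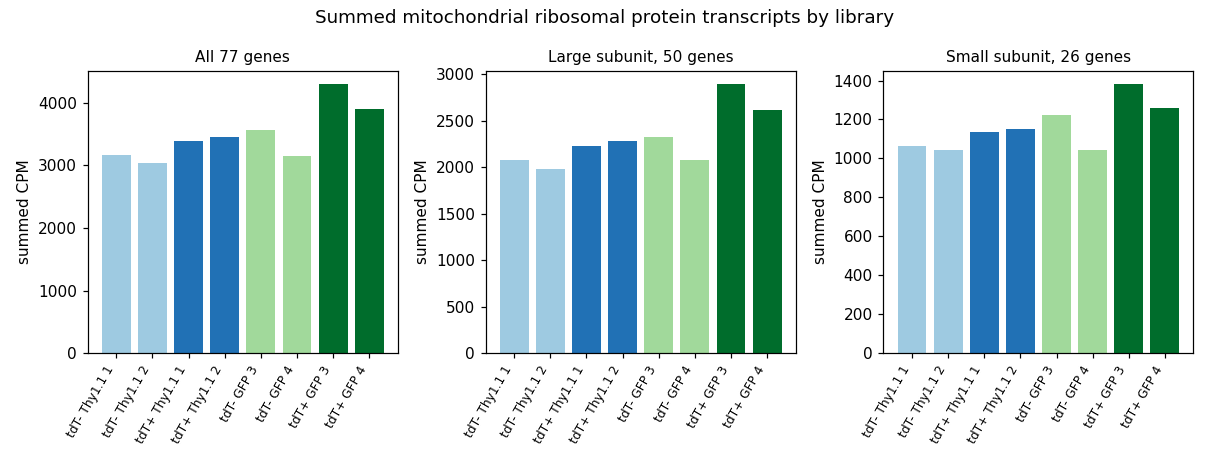
Summed CPM (vertical axis, from 0) of all 77 genes, the 50 large-subunit genes and the 26 small-subunit genes in each of the 8 libraries (bars, coloured by population; tdT is tdTomato). The tdTomato-positive GFP bars, 4292 and 3893 CPM for all genes, are the highest in all 3 panels.

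Gene by gene, tdTomato-positive GFP cells had the highest population mean for 55 of the 77 genes and tdTomato-negative Thy1.1 cells the lowest for 49. For 34 genes (44.2%) both tdTomato-positive GFP libraries lay above all 6 other libraries, against 17.2% of the 13989 tested genes, and for 0 genes both lay below them, against 17.4%. The libraries did not contribute alike: 46 genes had their highest value in tdTomato-positive GFP library 3 and 10 in library 4. Between the highest and lowest library, the median gene differed by 1.61-fold. Mrps17, a small-subunit protein with a bacterial homologue, moved least, at 1.25-fold, and Mrps6 most, at 3.05-fold.

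**Figure D2:**
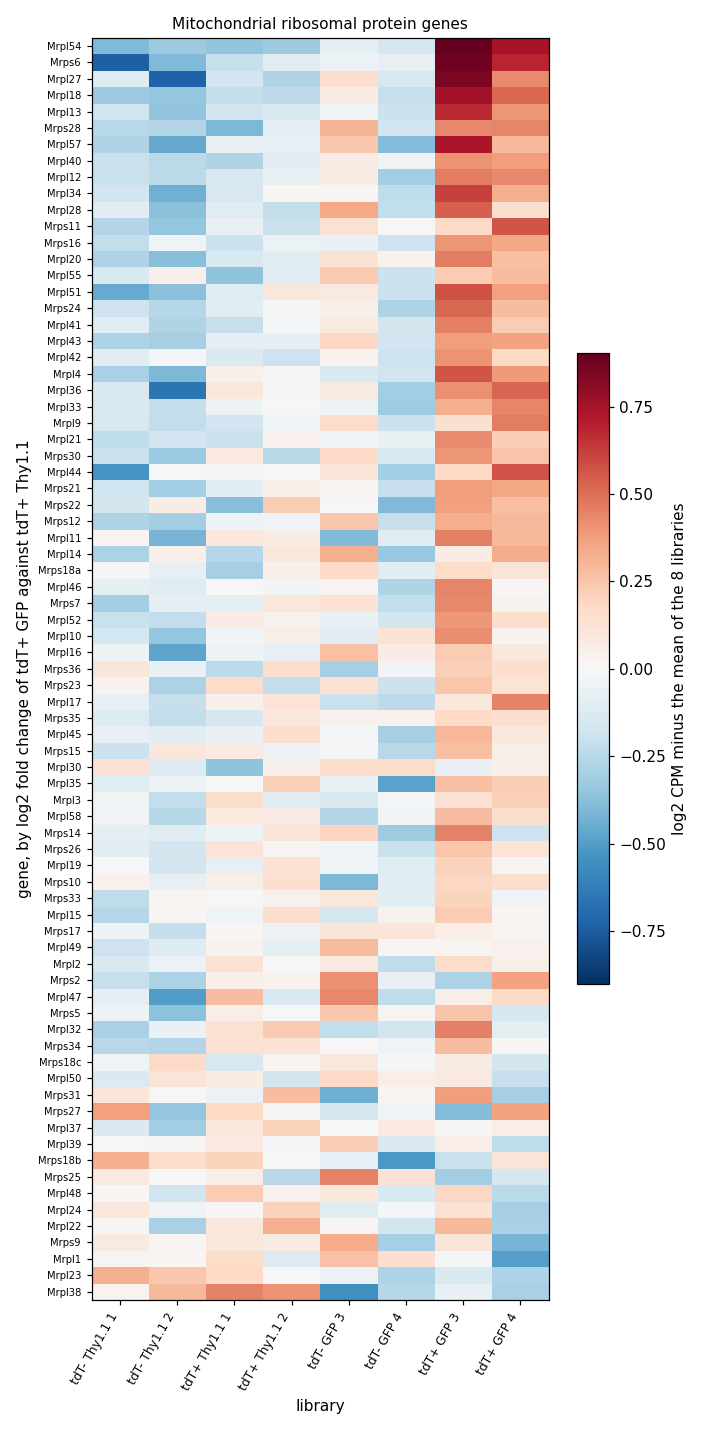
Each row is 1 of the 77 genes and each column 1 library (tdT is tdTomato); colour gives the log2 CPM minus the gene's mean over the 8 libraries, and rows are ordered by the fold change of tdTomato-positive GFP against tdTomato-positive Thy1.1 cells. Red gathers in the 2 right-hand columns for most rows, and the lowest rows, ending in Mrpl38, do not share it.

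Levels differed widely within the family. By mean CPM the 5 highest were Mrpl4 (93.0), Mrpl24 (91.5), Mrpl33 (88.5), Mrpl18 (86.5) and Mrpl10 (82.3), and the 5 lowest were Mrpl47 (15.2), Mrps36 (15.9), Mrpl55 (19.6), Mrps22 (21.1) and Mrpl14 (21.6). CPM is not adjusted for transcript length. Per kilobase of the principal annotated transcript, Mrpl33 led with 185 CPM per kb, followed by Mrps21 (120), Mrpl52 (115), Mrpl42 (86.9) and Mrps15 (76.0). On the same scale the lowest were Mrpl47 (4.53), Mrpl17 (6.08), Mrpl48 (8.17), Mrps25 (8.22) and Mrpl19 (8.61). Although their products are needed in fixed proportions in 1 particle, the levels adjusted by annotated length thus spanned a wide range. The ranking leans on those lengths: the 5 lowest have principal transcripts of 3364 to 7300 bases and the 5 highest of 418 to 937. Whether these annotated forms are the ones expressed in these cells was not tested.

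The first comparison asked how GFP and Thy1.1 cells differed among tdTomato-positive cells. Of the 77 genes, 13 were higher in GFP cells and 0 lower (edgeR quasi-likelihood test, Benjamini-Hochberg adjusted p below 0.05 over all 13989 tested genes), where 8.01% of all tested genes were higher and 6.82% lower. At an unadjusted p below 0.05 there were 27 higher and 1 lower, and DESeq2 called 18 higher and 1 lower, the latter Mrpl38. The median log2 fold change was 0.27 (quartiles 0.10 and 0.51), against -0.01 over all tested genes (quartiles -0.44 and 0.38), and 66 of the 77 values were positive. The libraries did not overlap for 41 genes that were higher and 3 that were lower in GFP cells, against 26% and 33.1% of all tested genes. The number of calls leaned on single libraries: it fell to 1 without tdTomato-positive Thy1.1 library 1 and likewise without library 2, and to 3 without tdTomato-positive GFP library 3. Without either tdTomato-negative Thy1.1 library it was 5. With both GFP libraries numbered 3 left out, 9 genes passed and the median was 0.25.

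The second comparison asked how tdTomato-positive and tdTomato-negative cells differed among GFP cells, and uses the same tdTomato-positive GFP libraries as the first. Here 7 of the 77 genes were higher in tdTomato-positive cells and 0 lower by the same test, where 6.24% of all tested genes were higher and 6.4% lower. At an unadjusted p below 0.05 there were 28 higher and 1 lower, where 2102 and 1956 of the 13989 tested genes were. DESeq2 called 14 higher and 1 lower, the latter Mrps25, again without a share of all tested genes to set beside it. The median log2 fold change was 0.32, against 0.03 over all tested genes, with 65 positive values. The libraries did not overlap for 42 genes that were higher and 4 that were lower, against 27% and 26.5% of all tested genes. No gene passed without tdTomato-negative GFP library 4, 1 passed without tdTomato-positive GFP library 3, and 4 passed without any 1 of the 4 Thy1.1 libraries. With both GFP libraries numbered 3 left out, 5 passed and the median was 0.34.

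**Figure D3:**
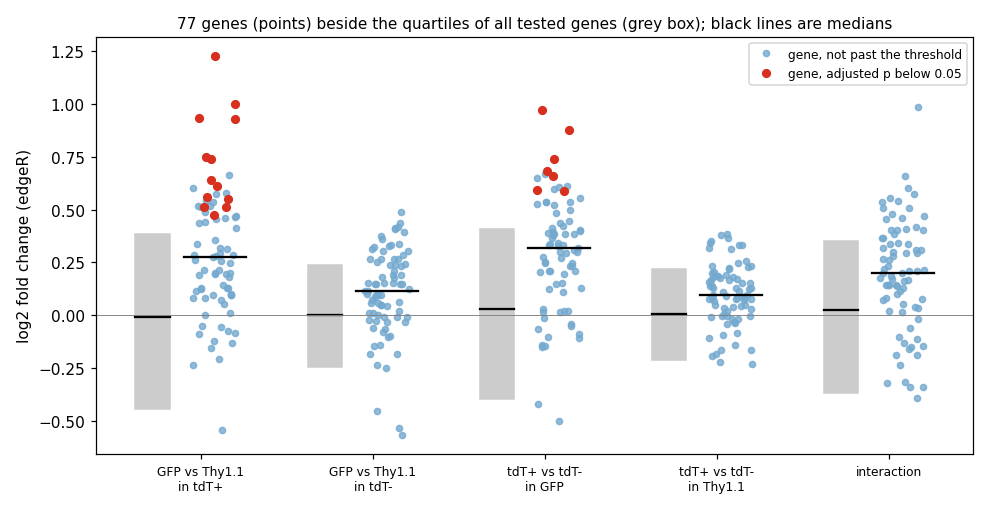
Fitted log2 fold changes (vertical axis) of the 77 genes in 5 comparisons, points, red where the adjusted p was below 0.05; grey boxes are the quartiles of all tested genes and black lines the medians. Red points occur only in the 2 comparisons of tdTomato-positive GFP cells with another population, 13 and 7 of them, and all are above 0. The interaction, which also uses these cells, has 0 red points.

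Among stalk proteins, which sit where translation factors dock on the large subunit, Mrpl54 and Mrpl12 passed. Mrpl54 (chromosome 10), a protein without a bacterial counterpart, was at 27.8 and 29.2 CPM in tdTomato-negative Thy1.1, 28.6 and 29.1 in tdTomato-positive Thy1.1, 34.5 and 32.9 in tdTomato-negative GFP, and 68.3 and 61.1 in tdTomato-positive GFP libraries. The tdTomato-positive GFP pair stood clear of 6 libraries that were close together. The log2 fold change was 1.23 ± 0.14 (SE, n = 2 per population) against tdTomato-positive Thy1.1 (adjusted p = 0.00263, edgeR) and 0.97 ± 0.14 against tdTomato-negative GFP (adjusted p = 0.00706, edgeR). Mrpl54 was the only gene of the family to pass in the first comparison whichever library was left out. In the second comparison it missed the threshold without tdTomato-negative GFP library 4 (adjusted p = 0.0533, edgeR).

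Mrpl12 (chromosome 11), the mitochondrial form of the factor-binding stalk protein L7/L12, was at 44.7 and 43.7, 46.5 and 49.1, 53.7 and 41.4, and 70.6 and 69.3 CPM in the populations in the same order. Again the last pair stood above the other 6 libraries. The log2 fold changes were 0.61 ± 0.15 in the first comparison (adjusted p = 0.0317, edgeR) and 0.59 ± 0.15 in the second (adjusted p = 0.0413, edgeR). The other stalk proteins did not pass by edgeR. Mrpl10, which anchors Mrpl12 to the ribosome, had log2 values of 0.28 and 0.25, and Mrpl11, at the base of the stalk, 0.36 and 0.65. For Mrpl11 in the second comparison DESeq2 gave an adjusted p of 0.0424.

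The central protuberance crowns the large subunit, and its proteins did not move together. Mrpl18 (chromosome 17), the homologue of a bacterial 5S rRNA-binding protein, was at 66.2 and 65.2 CPM in tdTomato-negative Thy1.1, 71.6 and 70.6 in tdTomato-positive Thy1.1, 86.9 and 71.8 in tdTomato-negative GFP, and 141 and 119 in tdTomato-positive GFP libraries. The tdTomato-positive GFP libraries were the 2 highest. Its log2 fold changes were 0.93 ± 0.13 (adjusted p = 0.00484, edgeR) and 0.74 ± 0.13 (adjusted p = 0.0134, edgeR). Mrpl40, specific to mitochondria, was at 39.1 and 43.9 CPM in tdTomato-positive Thy1.1 and 62.6 and 61.3 in tdTomato-positive GFP libraries, with a log2 fold change of 0.64 ± 0.13 (adjusted p = 0.0182, edgeR). Against tdTomato-negative GFP cells it did not pass (0.40, adjusted p = 0.0884, edgeR). Mrps30 and Mrpl46 had positive values that did not pass (0.46 and 0.31 in the first comparison), and Mrpl48 was at -0.09.

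Mrpl38 had the most negative value of the family in the first comparison. This central protuberance protein has no bacterial counterpart. It was at 55.7 and 54.1 CPM in tdTomato-positive Thy1.1 and 38.9 and 33.4 in tdTomato-positive GFP libraries, and at 41.6 and 50.0 in tdTomato-negative Thy1.1 and 27.8 and 34.2 in tdTomato-negative GFP libraries. All 4 GFP libraries lay below all 4 Thy1.1 libraries. The log2 differences between GFP and Thy1.1 were -0.54 ± 0.18 in tdTomato-positive cells (adjusted p = 0.0832, edgeR) and -0.57 ± 0.18 in tdTomato-negative cells (adjusted p = 0.269, edgeR), neither past the threshold, while DESeq2 gave an adjusted p of 0.0340 for the first.

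Elsewhere on the large subunit, Mrpl13 (chromosome 15), an early-assembling protein with a bacterial homologue, was at 45.3 and 39.9, 45.6 and 46.8, 49.8 and 44.7, and 81.5 and 67.4 CPM in the same order of populations. The log2 fold changes were 0.75 ± 0.15 (adjusted p = 0.0149, edgeR) and 0.68 ± 0.15 (adjusted p = 0.0249, edgeR). Mrpl4 (chromosome 9), whose bacterial homologue reaches into the exit tunnel, was at 74.04 and 68.4, 93.9 and 91.2, 83.1 and 80.0, and 134 and 119 CPM. Its Thy1.1 libraries also separated by tdTomato, with the tdTomato-positive pair higher. The log2 fold changes were 0.51 ± 0.11 (adjusted p = 0.0216, edgeR) and 0.66 ± 0.11 (adjusted p = 0.0113, edgeR). Mrpl33 (chromosome 5), a small protein near the exit site for tRNA, was at 79.3 and 75.1, 84.3 and 87.2, 84.3 and 69.8, and 110 and 118 CPM. Its log2 fold changes were 0.47 ± 0.12 (adjusted p = 0.0387, edgeR) and 0.59 ± 0.12 (adjusted p = 0.0219, edgeR).

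The large-subunit genes Mrpl27, Mrpl20 and Mrpl42 passed in the first comparison only, and whether their 2 fold changes differ was not tested. Mrpl27, whose bacterial homologue reaches toward the peptidyl transferase centre, was at 27.6 and 25.7 CPM in tdTomato-positive Thy1.1 and 56.0 and 41.8 in tdTomato-positive GFP libraries, a log2 fold change of 0.93 ± 0.25 (adjusted p = 0.0417, edgeR). Mrpl20 and Mrpl42 had smaller values of 0.55 and 0.51. For all 3 the tdTomato-positive GFP libraries were the 2 highest of the 8. Among the genes assigned here to the peptide exit tunnel rim, where new membrane proteins leave the ribosome, none passed the threshold. In the first comparison Mrpl44 had a log2 value of 0.45, Mrpl45 of 0.22, Mrpl24 of -0.12, Mrpl22 of -0.13 and Mrpl23 of -0.23.

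On the small subunit, Mrps6 moved most. This protein (chromosome 16), whose bacterial homologue pairs with S18 on the platform, was at 35.4 and 44.7 CPM in tdTomato-negative Thy1.1, 51.0 and 54.9 in tdTomato-positive Thy1.1, 56.8 and 56.0 in tdTomato-negative GFP, and 108 and 95.0 in tdTomato-positive GFP libraries. No 2 of the 4 populations overlapped, and the last stood highest. The log2 fold changes were 0.999 ± 0.15 (adjusted p = 0.00614, edgeR) and 0.88 ± 0.15 (adjusted p = 0.0121, edgeR). Mrps28 was at 23.9 and 29.8 CPM in tdTomato-positive Thy1.1 and 42.9 and 43.1 in tdTomato-positive GFP libraries (log2 fold change 0.74, adjusted p = 0.0454, edgeR). Mrps16 was at 32.3 and 35.6 and at 48.7 and 47.0 CPM in the same populations (0.56, adjusted p = 0.0468, edgeR) and lost its call whichever library was left out. Mrps6, like Mrpl18, lost its call in the first comparison only without either of the tdTomato-positive Thy1.1 libraries.

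Other small-subunit proteins gave values that did not pass by edgeR. Mrps12, at the decoding centre, had log2 values of 0.41 and 0.30 in the 2 comparisons. The S18 paralogues differed in sign: in the first comparison Mrps18a, which sits on the large subunit, was at 0.32, Mrps18b at -0.08 and Mrps18c at 0.07. Mrps25 was at 67.3 and 53.9 CPM in tdTomato-negative GFP and 39.6 and 44.4 in tdTomato-positive GFP libraries, without overlap, and had the most negative value of the second comparison (-0.50 ± 0.17, adjusted p = 0.0961, edgeR). Mrps36, which is no ribosomal subunit, was at 0.27 and 0.37.

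**Figure D4:**
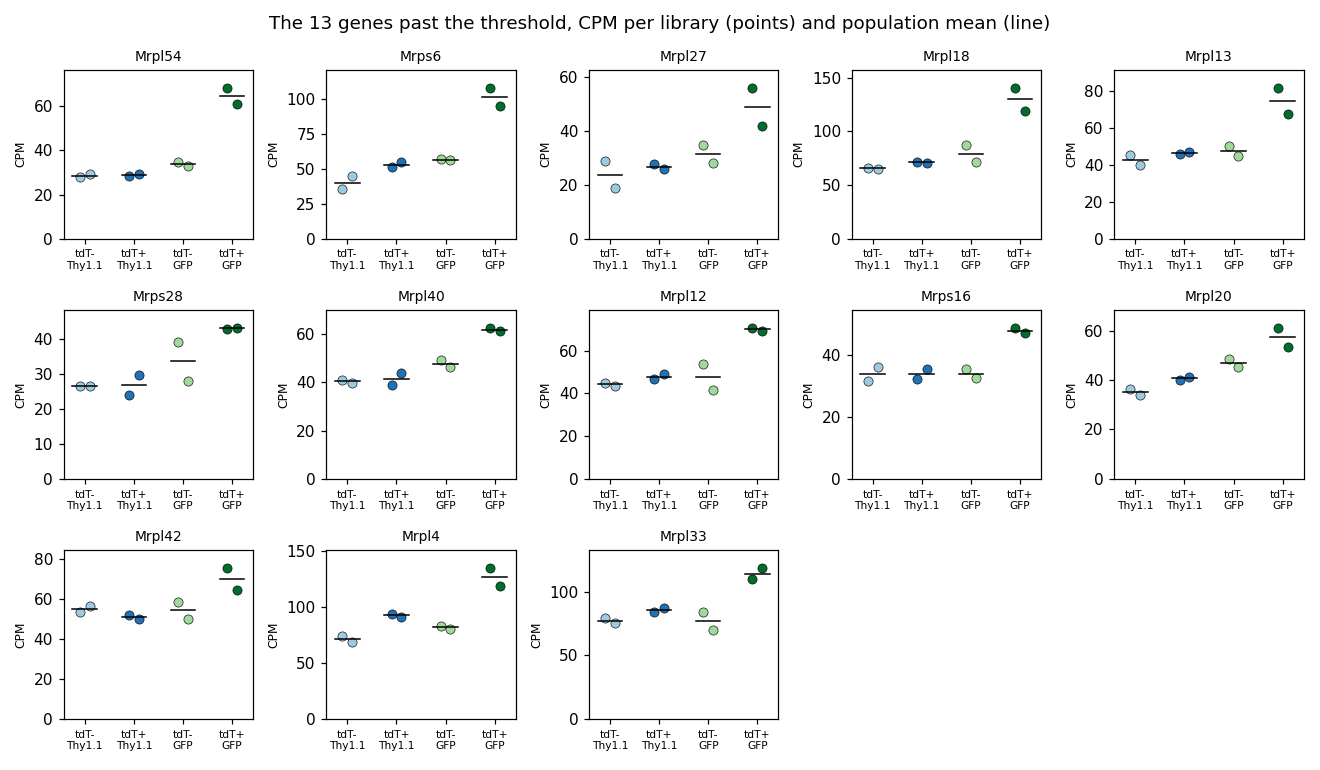
CPM (vertical axes, from 0) of the 13 genes past the threshold, with 1 point per library and a line at the mean of each population (tdT is tdTomato). In every panel both tdTomato-positive GFP points lie above the other 6, as for Mrpl54 at 68.3 and 61.1 CPM.

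In the first comparison 10 of 50 large-subunit genes (20%) and 3 of 26 small-subunit genes (11.5%) were higher, against 8.01% of all tested genes. Their medians were 0.32 and 0.18 on the log2 scale. In the second, the counts were 6 (12%) and 1 (3.85%), against 6.24% of all tested genes. The medians there were 0.36 and 0.28. The difference between subunits was not tested. The summed large-subunit level divided by the summed small-subunit level was 1.95 and 1.90 in tdTomato-negative Thy1.1, 1.96 and 1.98 in tdTomato-positive Thy1.1, 1.90 and 1.99 in tdTomato-negative GFP, and 2.10 and 2.08 in tdTomato-positive GFP libraries. The last pair lay above the other 6, and no test was run on this ratio. Of 46 genes with a bacterial homologue 10 (21.7%) were higher in the first comparison (median 0.29). Of 30 mitochondria-specific genes 3 (10%) were (median 0.23), against 8.01% of all tested genes. These 2 groups were not compared by a test.

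Comparisons without tdTomato-positive GFP cells gave no calls. Between GFP and Thy1.1 among tdTomato-negative cells, 0 of 77 genes passed by edgeR or DESeq2, where 0.164% of all tested genes passed by edgeR (0.0643% higher and 0.1% lower). At an unadjusted p below 0.05, 2 of the 77 were higher and 3 lower, where 846 and 816 of the 13989 tested genes were. The median log2 fold change was 0.11, with 56 positive values, and it was 0.02 without tdTomato-negative GFP library 3. The libraries did not overlap for 26 higher and 4 lower genes, against 21.3% and 21.2%. Between tdTomato-positive and tdTomato-negative Thy1.1 cells, 0 genes passed by either tool, as did 0% of all tested genes by edgeR. At an unadjusted p below 0.05, 4 of the 77 were higher and 0 lower, where 489 and 574 of the 13989 tested genes were. The median was 0.10 with 58 positive values, and the libraries did not overlap for 37 higher and 2 lower genes, against 27.1% and 18.2%.

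Whether the tdTomato difference depended on the reporter was tested as an interaction. No gene of the 77 passed by edgeR, where 0.443% of all tested genes did (0.0929% positive and 0.35% negative). At an unadjusted p below 0.05, 8 of the 77 were positive and 0 negative, where 824 and 968 of the 13989 tested genes were. DESeq2 called 1 gene of the 77. That gene was Mrpl54, with an interaction of 0.99 ± 0.20 on the log2 scale (adjusted p = 0.111, edgeR) and an adjusted p of 0.00367 by DESeq2. The median over the family was 0.20, with 61 positive values. So apart from Mrpl54 by DESeq2, the larger tdTomato difference in GFP cells was not established for any single gene.

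Some of these genes share exon sequence positions with other genes. The amplification kit does not mark strand and the counting method is not given in the sources used here, so reads of overlapping genes may not be separable. By GENCODE annotation 32 of the 77 genes had exons that overlap another gene. Among them were 6 of the 13 past the threshold in the first comparison and 5 of the 7 in the second. Mrpl18 overlaps Tcp1, a subunit of the cytosolic chaperonin, which was itself higher in the first comparison (0.39 ± 0.09, adjusted p = 0.0266, edgeR). Mrpl27 overlaps Eme1 (log2 fold change 1.48) and Mrpl13 overlaps Mtbp (1.37), both also higher, while Mrps6, Mrpl12 and Mrpl33 overlap Slc5a3 and unnamed gene models. Among the 45 genes without such overlap, 7 (15.6%) were higher in the first comparison, against 8.01% of all tested genes. In the second comparison 2 (4.44%) were higher, which is not above the 6.24% of all tested genes. The medians of these 45 genes were 0.25 and 0.30.

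Genes that work with the mitochondrial ribosome were read from lists by function. Of 5 tested ribosomal proteins with other names, Gadd45gip1 passed in the first comparison (log2 0.41, adjusted p = 0.0419, edgeR) and Aurkaip1 in the second (0.54, adjusted p = 0.0392, edgeR), both higher. The 5 did not move together, with medians of 0.15 and 0.02 and 2 negative values in each comparison. At an unadjusted p below 0.05, 2 were higher and 0 lower in the first comparison, and 2 higher and 2 lower in the second. Of 12 translation factors, 1 was higher in the first comparison and 3 in the second, with medians of 0.33 and 0.33. The elongation factor Gfm1 was at 75.1 and 81.8 CPM in tdTomato-positive Thy1.1, 77.5 and 65.0 in tdTomato-negative GFP and 115 and 106 in tdTomato-positive GFP libraries, with log2 fold changes of 0.55 and 0.66. The initiation factor Mtif2 (0.54) and Mtfmt, which formylates the initiator tRNA (0.66), passed in the second comparison. Assembly factors moved little as a list, with 1 of 29 higher in each comparison and medians of -0.02 and 0.18. That gene was Ddx28, an RNA helicase of large-subunit assembly, with log2 values of 0.94 and 1.07.

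Mitochondrial aminoacyl-tRNA synthetases, which charge the tRNAs, went both ways. Of 20 tested, Sars2 was higher (0.95) and Nars2 (-0.74) and Wars2 (-1.04) were lower in the first comparison, and Wars2 was lower in the second (-1.13), with list medians of -0.06 and 0.03. None of 11 mitochondrial transcription and RNA stability genes was higher in either comparison. Lrpprc, which stabilises mitochondrial messages, was lower in the second (-0.57, adjusted p = 0.0445, edgeR), Tfam, which packages mitochondrial DNA, was at 0.06 and 0.14, and Polrmt, the mitochondrial RNA polymerase, was listed at 0 in all libraries. Messages encoded by the mitochondrial genome were not analysed here.

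Nuclear genes for respiratory chain and ATP synthase subunits were also read, and no test compared the lists with one another. In the first comparison 7 of 36 complex I subunits and 20 of 33 subunits of complexes III to V were higher and 0 lower, with medians of 0.36 and 0.48. In the second, 5 and 12 were higher and 0 lower, with medians of 0.31 and 0.45. Examples in the first comparison were Cox5a (0.89), Uqcrfs1 (0.83), Uqcrq (0.78) and Ndufb8 (0.66). Of 79 cytosolic ribosomal protein genes, 1 was higher (Rpsa, 0.38) and 1 lower (Rps19, -0.37) in the first comparison, with 40 positive values and a median of 0.00 (quartiles -0.10 and 0.10). In the second, 1 was higher (Rpsa, 0.45) and 0 lower, 60 values were positive, and the median was 0.06 against 0.03 over all tested genes. At an unadjusted p below 0.05, 7 were higher and 0 lower there, where 2102 and 1956 of the 13989 tested genes were. The libraries did not overlap for 28 higher (35.4%) and 5 lower genes (6.33%), against 27% and 26.5% of all tested genes. Of 20 genes of nucleolar ribosome biogenesis 0 passed in either comparison by edgeR, with 2 higher and 1 lower at an unadjusted p below 0.05 in the first and 0 and 2 in the second, and medians of -0.10 and -0.17. DESeq2 was summarised for the 77 genes only.

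Known regulators of this system were mostly not higher. Myc, which drives growth and ribosome production, was lower, at 246 and 281 CPM in tdTomato-positive Thy1.1, 253 and 312 in tdTomato-negative GFP and 128 and 166 in tdTomato-positive GFP libraries. Its log2 fold changes were -0.78 ± 0.17 (adjusted p = 0.0215, edgeR) and -0.92 ± 0.17 (adjusted p = 0.0152, edgeR). Nrf1 (-0.17), Gabpa (0.13), Yy1 (-0.09), Ppargc1b (-0.92) and Pprc1 (-0.47), which act on nuclear genes for mitochondrial proteins, did not pass in the first comparison. Eif4ebp1, a target of mTORC1 that restrains cap-dependent translation, was higher in both (1.29 and 1.05), and Tfe3 in the second (0.67). Over the list of 19, the medians were -0.17 and -0.10.

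As a sum, cell cycle genes were also highest in the tdTomato-positive GFP libraries. Their 20 genes summed to between 827 and 928 CPM in the Thy1.1 libraries, 1557 and 1209 in the tdTomato-negative GFP libraries and 2616 and 2292 in the tdTomato-positive GFP libraries, and 19 of 20 were higher in the first comparison and 12 in the second. Their part in the ribosomal protein result was not tested. Between GFP and Thy1.1 among tdTomato-negative cells 0 of the 20 passed by edgeR, with 16 higher and 0 lower at an unadjusted p below 0.05. Their median log2 fold change there was 1.14, against 0.11 for the 77 genes. The 2 lists differed in sign between tdTomato-positive and tdTomato-negative Thy1.1 cells. There 5 of the 20 cell cycle genes had positive values (median -0.19), against 58 of the 77 (median 0.10), and 0 passed in either list.

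**Figure D5:**
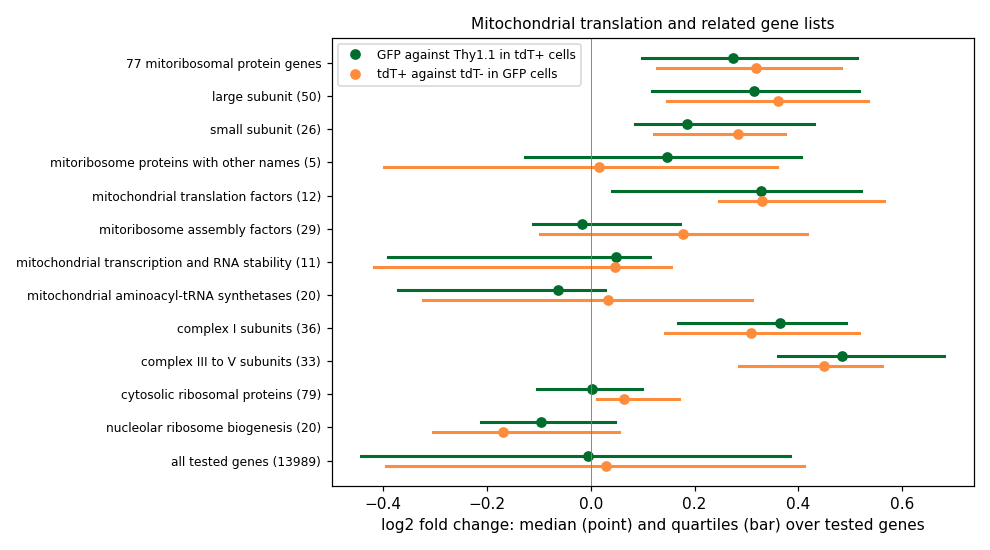
Median (point) and quartiles (bar) of the fitted log2 fold changes of the tested genes in each list, with the number tested in brackets, for the first comparison, between reporters in tdTomato-positive cells (green), and tdTomato-positive against tdTomato-negative in GFP cells (orange). The 77 genes (0.27 and 0.32) lie with the translation factors and respiratory complexes to the right of 0, and cytosolic ribosomal proteins (0.00 and 0.06) lie close to it.

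Spread between the libraries of a population limited what could be called. The median absolute log2 difference between the 2 libraries over the family was 0.13 in each Thy1.1 population, 0.25 in tdTomato-negative GFP and 0.21 in tdTomato-positive GFP cells. The widest gap within each population was in Mrps27 for tdTomato-positive GFP (0.76) and tdTomato-negative Thy1.1 cells (0.72), in Mrpl14 for tdTomato-negative GFP cells (0.66) and in Mrps22 for tdTomato-positive Thy1.1 cells (0.61). In the GFP populations library 3 tended to be the higher, with only 15 of 77 genes in tdTomato-negative and 18 of 77 in tdTomato-positive cells higher in library 4. Median standard errors of the log2 fold changes were 0.17 for the family, so differences of the size of the family's medians were below what the test calls for most single genes.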

How the data were processed

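RNA from sorted cells was measured in 8 libraries, 2 for each of 4 populations. Per the labels' protocols, RNA extracted in TRIzol went through 12 cycles with a SMART-Seq v4 kit, and libraries were made from 2 to 10 ng of cDNA (8 cycles) and sequenced as paired 50-base reads. The authors deposited whole-number read counts per gene. The submitters' processing notes name DESeq; which aligner, counter or build was used is not given in the sources used here. Rows without a gene name (8) held 0.0215% to 0.0264% of counts and were left out. The GFP columns (numbered 3 and 4, titles 1 and 2) were assigned to their population only.

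CPM was computed over counts in named genes. Tests used edgeR 4.0.16 (quasi-likelihood, robust, TMM factors 0.978 to 1.02, filterByExpr with minimum count 10) on all 8 libraries, with Benjamini-Hochberg adjustment over 13989 genes, and DESeq2 1.42.0 (R 4.3.3) as an alternative. The code was tested on simulated data. Transcript lengths and overlaps came from GENCODE vM21 and promoters from RefSeq, GRCm38.p6. The genes and lists were chosen with earlier results of these data known. Named genes are those past the threshold (up to 10 with the largest change per direction and comparison, and the rest of the 13), the 5 highest and lowest by level, those with the widest library gap in each population, fixed landmarks, and up to 4 per list by adjusted p. Mrpl38, Mrps25, the single marker genes and the genes given for overlap were named after their values were seen. Alternatives covered scaling, filters, tool, populations fitted, overlapping genes, blocks by library number and each library left out; leaving out both GFP libraries numbered 3 was chosen after seeing the data.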

Additional observations from a re-analysis of the deposited data

How the results depend on the processing

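Median log2 fold changes of the 77 genes stayed positive under every alternative run. With 1 library left out, calls ranged from 1 to 12 between the reporters in tdTomato-positive cells (median 0.178 to 0.298) and from 0 to 6 for tdTomato-positive against tdTomato-negative in GFP cells (median 0.216 to 0.406). The same range of medians was 0.021 to 0.208 for GFP against Thy1.1 in tdTomato-negative cells and 0.054 to 0.312 for the interaction. In the first comparison 6 genes passed with library totals in place of TMM factors, 6 with only the 2 populations fitted, and 7 of the 45 without overlapping exons. In the second, 15 passed by DESeq2, 0 with only the 2 populations fitted and 2 without overlapping exons. DESeq2 called 1 in the interaction. Fewer samples or genes entered several of these fits; the cause of the other changes was not tested. With both GFP libraries numbered 3 left out, the median in tdTomato-negative cells was 0.021.

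The replicate numbers were shared within a reporter only. Same-numbered libraries deviated together weakly over all tested genes (r = 0.138 for Thy1.1 and 0.153 for GFP, 1 value per pair of populations). Over the 77 genes r was 0.283 for Thy1.1 and -0.103 for GFP. Same-numbered libraries were not taken as pairs, although most of the 77 genes were higher in library 3 in both GFP populations. With the replicate block by library number within the reporter, 11 and 8 genes passed in the first and second comparisons, and the median of GFP against Thy1.1 in tdTomato-negative cells was 0.206. Summed levels of the genes without overlapping exons were 1723.1, 1887.4, 1839.4 and 2183.6 CPM in tdTomato-negative Thy1.1, tdTomato-positive Thy1.1, tdTomato-negative GFP and tdTomato-positive GFP cells, since fewer genes were summed, and with TMM-scaled totals the tdTomato-positive Thy1.1 sum was 3343.6. Among the single genes past the threshold, 88 of 160 values with 1 library left out and 44 of 180 under other settings kept their direction but missed the threshold. With 2 libraries per population, leaving 1 out leaves a lone library that is assumed to vary like the others. PCR duplicates were not identified here, so precision rests on the spread between libraries.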
